A study of Mus musculus with 12 samples.

Results

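The collagen VI chains are the 6 genes Col6a1 to Col6a6, taken as the rows of both expression tables that carry those symbols, of 46983 symbols in each table. All 6 were listed in both tables, and 5 of the 6 had a mean of 10 normalized reads or more in each fraction and were tested. Col6a4 was below that mean in both fractions and is given by its values. RNA was sequenced from hearts of BL6/C57 mice, split into cardiomyocytes (CM) and the other, interstitial cells (NonCM). The 4 groups of 3 libraries were NonCM from MCM/+ Wls fl/fl hearts, NonCM from MCM/+ control hearts, CM from MCM/+ Wls fl/fl hearts and CM from MCM/+ control hearts. MCM commonly stands for MerCreMer, a tamoxifen-inducible Cre recombinase, and both genotypes carried it, so that they differ in the floxed Wls gene, whose product escorts Wnt proteins to the cell surface. There was no group with floxed Wls and no MCM. The mice had 3 tamoxifen doses from postnatal day 1 to postnatal day 3 and a myocardial infarction at postnatal day 2, and tissue was taken 2 weeks after surgery, although the labels call the cells adult. The series design states 3 hearts per condition and does not say which CM and NonCM library came from the same heart, and the promoter driving MCM is not given in the sources used here.

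Collagen VI forms beaded microfilaments in the matrix around cells. Inside the cell an alpha 1 chain (Col6a1), an alpha 2 chain (Col6a2) and an alpha 3 chain (Col6a3) wind into a triple helix, and the helices pair up into tetramers before they are secreted. The alpha 4, alpha 5 and alpha 6 chains (Col6a4, Col6a5, Col6a6) resemble alpha 3 and are thought to take its place. In heart and skeletal muscle the chains are made mainly by fibroblast-type cells, and in humans mutations of the genes for the alpha 1, alpha 2 and alpha 3 chains cause muscular dystrophies.

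Depth ranged from 1160146 recovered reads in NonCM control replicate 1, where each read is worth 5.54 normalized reads, to 10281214 in NonCM Wls fl/fl replicate 1. Wls, the floxed gene, fell in CM, to 80.9 ± 20.5 normalized reads in Wls fl/fl hearts, against 218 ± 22.1 in control hearts (SD, n = 3 each; log2 change −1.45, limma adjusted p = 0.00389), and the change of −1.60 seen when replicate 3 was left out did not pass (limma adjusted p = 0.0896, edgeR adjusted p = 0.0815). In NonCM its change was −0.28 (limma adjusted p = 0.0831). NonCM held cardiomyocyte RNA, since 12 cardiomyocyte markers took 5.50 to 5.69% of reads in NonCM Wls fl/fl and 6.40 to 6.99% in NonCM control libraries, against 9.40 to 10.5% in CM Wls fl/fl and 9.58 to 9.75% in CM control libraries. In all 4 groups, replicate 3 was close to a weighted average of the other 2 libraries: its mean squared residual was 1.01 to 1.05 times the counting variance, against 1.13 to 2.00 for the other libraries fitted in the same way. The tests and gene list counts are therefore also given without replicate 3, and p-values measure only the spread between these libraries. Whether replicate 3 came from a separate heart was not tested. If it did not, the SDs, SEs, intervals and p-values given over 3 libraries per group are too small.

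In mouse build mm10 the genes fall into 3 places, all on the minus strand. Col6a1 (chr10:76708792-76726168) and Col6a2 (chr10:76595762-76623630) are neighbours, with 85.2 kb and no other protein-coding gene between them. Col6a3 stands alone on chromosome 1 (chr1:90765923-90843971). Col6a6 (chr9:105687809-105828160), Col6a5 (chr9:105856078-105960643) and Col6a4 (chr9:105989454-106096783) follow each other in a row, with gaps of 27.9 and 28.8 kb. Genes annotated on the opposite strand overlap 0.687% of the exon bases of Col6a6 and 1.90 and 1.49% of those of Col6a4. Only the gene at 1.90% is typed as antisense. The sources used here do not give the use of strand in counting.

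The promoter windows of the 3 classical chains, which rose together in NonCM, and of Col6a5, which had the largest change among the chains and was added after its values were seen, are shown for comparison. Each runs from 250 bases before to 50 bases after the RefSeq transcription start (GRCm38.p6, minus strand), at chr10:76725995-76726294 for Col6a1, chr10:76623581-76623880 for Col6a2 (1 of 2 RefSeq windows of that gene), chr1:90843922-90844221 for Col6a3 and chr9:105960594-105960893 for Col6a5. Capitals mark matches on either strand to 5 motifs. A GC box was searched as GGGCGG and a TEAD motif as GGAATG. A Smad motif was searched as CAGAC and an AP-1 motif as TGANTCA, while the TATA box was searched as TATAAA. No positions were shared between matches.
Col6a1: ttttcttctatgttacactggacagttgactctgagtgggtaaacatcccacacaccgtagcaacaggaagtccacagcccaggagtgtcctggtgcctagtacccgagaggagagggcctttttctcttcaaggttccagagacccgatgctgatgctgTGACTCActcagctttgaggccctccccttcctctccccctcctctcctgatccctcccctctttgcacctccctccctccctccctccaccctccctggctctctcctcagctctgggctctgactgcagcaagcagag
Col6a2: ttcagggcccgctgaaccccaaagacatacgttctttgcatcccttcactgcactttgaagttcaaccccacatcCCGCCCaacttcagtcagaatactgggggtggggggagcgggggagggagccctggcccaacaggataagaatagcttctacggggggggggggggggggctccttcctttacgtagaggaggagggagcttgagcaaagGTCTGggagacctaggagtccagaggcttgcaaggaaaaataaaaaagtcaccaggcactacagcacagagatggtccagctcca
Col6a3: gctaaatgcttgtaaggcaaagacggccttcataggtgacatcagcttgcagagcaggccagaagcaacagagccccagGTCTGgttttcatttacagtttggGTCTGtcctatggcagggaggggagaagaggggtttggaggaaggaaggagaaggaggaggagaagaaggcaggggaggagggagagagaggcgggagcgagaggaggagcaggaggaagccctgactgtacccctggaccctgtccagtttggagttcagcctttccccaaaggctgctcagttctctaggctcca
Col6a5: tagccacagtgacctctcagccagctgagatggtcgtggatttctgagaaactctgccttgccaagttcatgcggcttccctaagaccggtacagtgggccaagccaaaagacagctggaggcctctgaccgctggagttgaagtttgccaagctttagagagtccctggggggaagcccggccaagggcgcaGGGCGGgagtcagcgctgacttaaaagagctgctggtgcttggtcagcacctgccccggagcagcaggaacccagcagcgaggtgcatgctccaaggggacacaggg
The Col6a1 window held a single match, an AP-1 motif that begins 90 bases before the start, and 7.81% of 32851 promoter windows hold that motif. The Col6a2 window held a GC box 175 bases and a Smad motif 35 bases before the start, and the Col6a3 window held 2 Smad motifs, 171 and 147 bases before the start. The Col6a5 window held a GC box 57 bases before the start. GC boxes occur in 35.7% and Smad motifs in 49.6% of all windows. None of the 6 chains' windows had a match to the TEAD or TATA letters, which occur in 14.7 and 13.6% of windows. GC content was 57.3, 56.7, 56.3 and 60.0% in the Col6a1, Col6a2, Col6a3 and Col6a5 windows, against a median of 52.7% over all windows.

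In NonCM all 5 tested chains rose in Wls fl/fl hearts, Col6a5 by 3.95-fold and the other 4 by 1.39-fold to 1.54-fold, and in CM none of the 5 passed the test. Every tested chain had all 3 Wls fl/fl libraries above all 3 control libraries in NonCM. Over all 13271 genes tested in NonCM, 4.51% were called and 2.47% were called higher, and 13.9% had all Wls fl/fl libraries above all controls. The median log2 change was 0.55 over the 5 chains and 0.02 over all genes tested. All 5 were also called by edgeR, as were 10.9% of genes, and by DESeq2, as were 6.35% of genes to which it gave an adjusted p. The plot of the chains by library shows this spread on 1 scale for both fractions, as CPM, the recovered reads scaled to the total of their library.

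**Figure D1:**
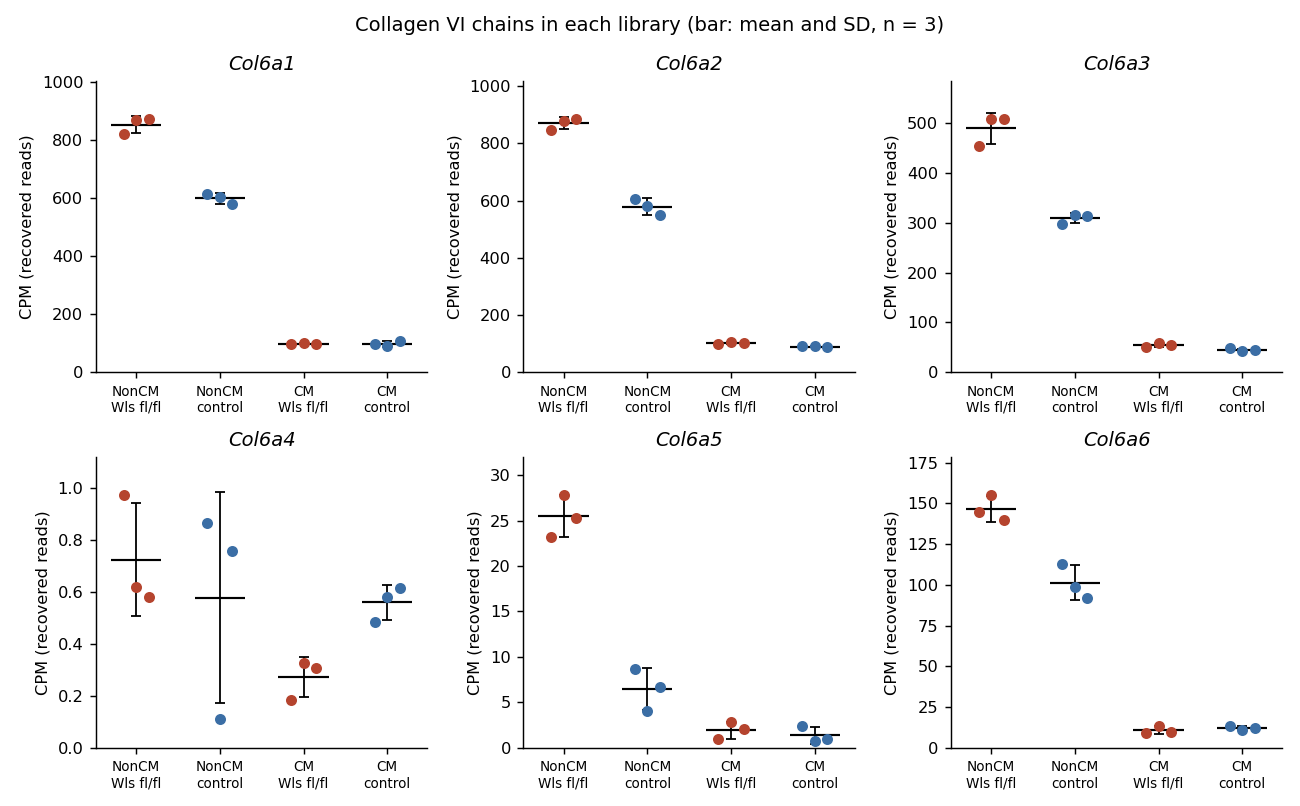
CPM (recovered reads scaled to the library total) of each collagen VI chain (vertical axes, each from 0) in each library, with NonCM Wls fl/fl, NonCM control, CM Wls fl/fl and CM control from left to right; points are libraries, and bars give the mean and SD (n = 3). In NonCM the 3 Wls fl/fl points lie above the 3 control points for every chain except Col6a4, which stayed below 1 on its axis in every library, and Col6a5 averaged 25.5 in NonCM Wls fl/fl against 6.44 in NonCM control libraries.

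The alpha 1 and alpha 2 chains, which every collagen VI molecule contains, had similar numbers of reads. Col6a1 had 5353, 5611 and 5611 normalized reads in NonCM Wls fl/fl replicates 1 to 3, against 3947, 4120 and 3882 in NonCM control replicates 1 to 3. Col6a2 had 5543, 5693 and 5698 normalized reads in NonCM Wls fl/fl libraries, against 3903, 3966 and 3685 in NonCM control libraries. For both, the groups lay well apart and the libraries of a group were close together. Col6a1 rose by 0.47 on the log2 scale (SE 0.05, 95% interval 0.37 to 0.58, limma adjusted p = 0.00138). Col6a2 rose by 0.55 (SE 0.05, 95% interval 0.45 to 0.66, limma adjusted p = 8.7e-04).

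Col6a3 encodes the alpha 3 chain, whose C-terminal piece is cut off after secretion and is known as endotrophin. It had 2970, 3287 and 3272 normalized reads in NonCM Wls fl/fl libraries, against 1913, 2155 and 2106 in NonCM control libraries. The groups did not overlap, with the lowest Wls fl/fl library well above the highest control library. Col6a3 rose by 0.63 (SE 0.06, 95% interval 0.49 to 0.77, limma adjusted p = 0.00153).

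Among the chains that resemble alpha 3, Col6a6 was the most abundant. It had 947, 1005 and 899 normalized reads in NonCM Wls fl/fl libraries, against 726, 674 and 617 in NonCM control libraries. It rose by 0.50 (SE 0.07, 95% interval 0.34 to 0.66, limma adjusted p = 0.00832), and without NonCM Wls fl/fl replicate 2 its change of 0.46 had an adjusted p of 0.062.

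Col6a5 had 152, 180 and 163 normalized reads in NonCM Wls fl/fl libraries, against 55.4, 27.5 and 44.9 in NonCM control libraries. These values rest on 239, 271 and 218 recovered reads in NonCM Wls fl/fl libraries, against 10, 36 and 62 in NonCM control libraries. The control value of 55.4 comes from the shallowest library, where exact Poisson counting limits (95%, counting error only) put it between 26.6 and 101.9, and the lowest such limit among the Wls fl/fl libraries was 133. Col6a5 rose by 1.98 (SE 0.23, 95% interval 1.47 to 2.50, limma adjusted p = 0.00293), and without the shallowest control library its change was 2.20. Counting Col6a5 itself, 11 called genes in NonCM had a change at least as large.

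Col6a4, the third alpha 3-like chain, whose human counterpart is a broken gene, was barely detected. In NonCM it had 10, 6 and 5 recovered reads in Wls fl/fl libraries, against 1, 1 and 7 in control libraries, and in CM it had 1, 2 and 3 reads in Wls fl/fl libraries, against 3, 3 and 4 in control libraries. In NonCM the groups overlapped in normalized reads, at 3.74 to 6.36 in Wls fl/fl and 0.763 to 5.54 in control libraries. The authors' deposited table gives Col6a4 a log2 fold change of 0.52 in NonCM (SE 0.99) and −1.01 in CM (SE 1.13), with p-values of 0.599 and 0.371 and no adjusted p-value. In CM all 3 Wls fl/fl libraries, at 1.18, 2.08 and 1.94 normalized reads, lay below all 3 control libraries, at 3.07, 3.70 and 3.89, as did 7.05% of the genes tested there, a test that Col6a4 did not enter. Exact Poisson counting limits (95%) of these CM values overlapped, with upper limits of 5.67 to 7.53 in Wls fl/fl and lower limits of 0.632 to 1.06 in control libraries.

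In CM, 0 of the 5 tested chains were called by limma, and 11 of 11944 genes tested (0.0921%) were called. By edgeR none was called either, against 0.1% of genes, while Col6a2 and Col6a3 had an unadjusted limma p under 0.05, as did 8.74% of all genes. Col6a1 had 616, 639 and 607 normalized reads in CM Wls fl/fl libraries, against 612, 563 and 686 in CM control libraries. Its groups overlapped fully, with a log2 change of 0.00 (95% interval −0.15 to 0.16, limma adjusted p = 0.995).

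Col6a2 had 618, 665 and 636 normalized reads in CM Wls fl/fl libraries, against 573, 573 and 553 in CM control libraries. Col6a3 had 322, 375 and 348 in CM Wls fl/fl libraries, against 299, 268 and 282 in CM control libraries. For both, all Wls fl/fl libraries lay above all controls, which was so for 7.97% of genes tested in CM, and neither passed the test. The log2 difference was 0.17 for Col6a2 (95% interval 0.05 to 0.30, limma adjusted p = 0.444) and 0.30 for Col6a3 (95% interval 0.12 to 0.47, limma adjusted p = 0.389).

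The alpha 3-like chains were sparse in CM. Col6a6 had 56.4, 86.5 and 62.8 normalized reads in CM Wls fl/fl libraries, against 84.8, 70.3 and 75.9 in CM control libraries, and its groups overlapped (log2 difference −0.19, 95% interval −0.54 to 0.17, limma adjusted p = 0.781). Col6a5 rested on 5, 17 and 20 recovered reads in CM Wls fl/fl libraries, against 15, 4 and 6 in CM control libraries. Its log2 difference of 0.48 had a 95% interval from −0.56 to 1.52 (limma adjusted p = 0.807), which overlaps the NonCM interval. With single libraries left out it ranged from 0.17, without CM Wls fl/fl replicate 2, to 0.93, without CM control replicate 1.

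Whether the genotype difference itself differed between fractions was tested over all 12 libraries with edgeR, as the log2 difference in NonCM minus that in CM. It passed for 3 of 5 chains, against 1.41% of 13993 genes tested (0.329% with a positive difference). It was 0.46 for Col6a1 (adjusted p = 0.0299), 0.36 for Col6a2 (adjusted p = 0.0307) and 0.71 for Col6a6 (adjusted p = 0.0447). It did not pass for Col6a3, at 0.30 (edgeR adjusted p = 0.149), nor for Col6a5, at 1.62 (edgeR adjusted p = 0.138). The Col6a5 value was 0.92 without CM control replicate 1 and lay between 1.34 and 1.90 without each of the other 11 libraries. Without replicate 3 of all 4 groups the first 3 values were 0.32, 0.33 and 0.59, none passed (edgeR adjusted p = 0.731 for each), and 0.00715% of all genes were called. Each of the 3 calls was also lost without at least 5 of the 12 single libraries, listed with their values in the closing section.

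All 5 chains tested in NonCM lost the limma call without replicate 3 of both genotypes, when limma called 0 of 13271 genes. Their log2 changes were then 0.44 for Col6a1, 0.51 for Col6a2, 0.62 for Col6a3, 2.06 for Col6a5 and 0.48 for Col6a6. The edgeR fit of the same 4 libraries called 27 genes (0.203%), and Col6a5 was among them (log2 change 2.38, edgeR adjusted p = 0.0124). The edgeR adjusted p of the other 4 chains lay between 0.0578 and 0.111.

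Levels were compared between chains per length, in CPM per kb of the longest CCDS transcript (the longest with a consensus coding sequence). The plot of levels by chain uses a log axis, since the highest and lowest chains lie far apart. In each of the 12 libraries the order was Col6a1, Col6a2, Col6a3, Col6a6, Col6a5, Col6a4. In NonCM, Col6a1 was at 208 ± 7.19 in Wls fl/fl and 146 ± 4.35 in control libraries, and Col6a2 at 187 ± 4.39 in Wls fl/fl and 124 ± 6.18 in control libraries (SD, n = 3 each). Col6a3, at 54.5 ± 3.46 in NonCM Wls fl/fl and 34.3 ± 1.1 in NonCM control libraries, was well below its partner chains. Col6a6 followed at 16.7 ± 0.901 in NonCM Wls fl/fl and 11.5 ± 1.22 in NonCM control libraries, then Col6a5 at 2.74 ± 0.249 in NonCM Wls fl/fl and 0.694 ± 0.249 in NonCM control libraries. Col6a4 was at 0.0982 ± 0.0294 in NonCM Wls fl/fl and 0.0782 ± 0.0551 in NonCM control libraries. Of 20 pairs of neighbours in this order over the 4 groups, 19 had ranges that did not overlap, and the exception was Col6a5 and Col6a4 in CM control libraries. The gap between Col6a1 and Col6a2 depends on the length used, since per kb of all annotated exons Col6a2 stood at 105 ± 2.45 in NonCM Wls fl/fl and 69.5 ± 3.46 in NonCM control libraries.

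**Figure D2:**
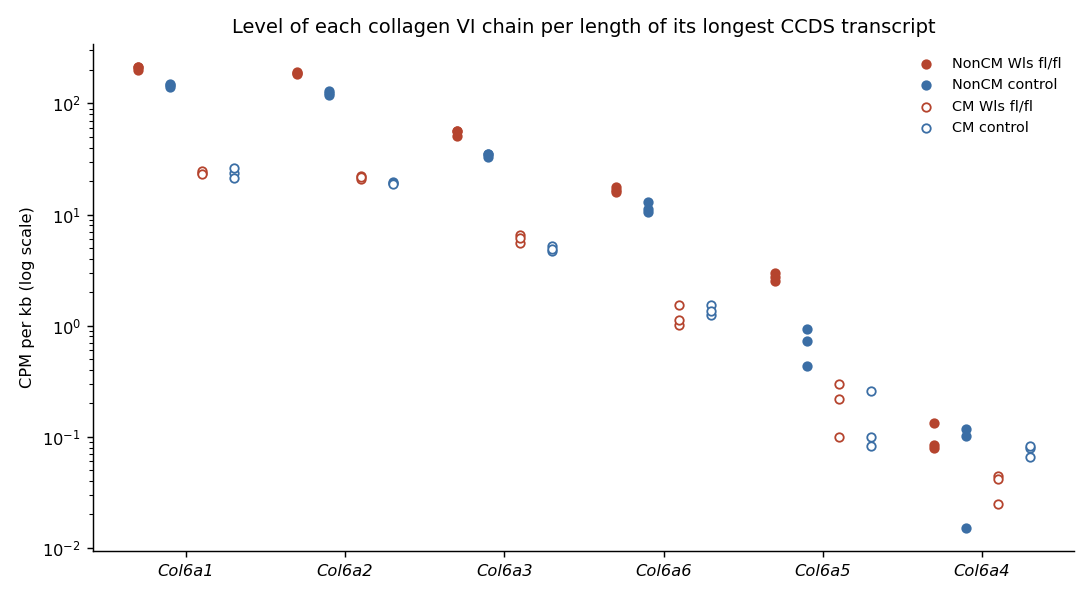
Level of each collagen VI chain in each library, in CPM per kb of the longest CCDS transcript (vertical axis, log scale), with chains ordered by level; filled points are NonCM and open points CM libraries, red Wls fl/fl and blue control (n = 3 each). The chains keep the same order in all 12 libraries, from 208 for Col6a1 to 0.0982 for Col6a4 as means in NonCM Wls fl/fl libraries.

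Among 44 collagen genes ranked by level per kb of all exons, Col6a1 was 5th, Col6a2 9th, Col6a3 12th and Col6a6 15th in both NonCM groups. Col6a5 was 22nd in NonCM Wls fl/fl and 27th in NonCM control libraries. Of the summed level of the 4 chains that are alpha 3 or resemble it (per kb of all exons), Col6a5 made up 4.52 ± 0.192% in NonCM Wls fl/fl and 1.82 ± 0.637% in NonCM control libraries (SD, n = 3 each). These ranges, 4.38 to 4.74% and 1.14 to 2.40%, did not overlap. Col6a3 made up 68.5 ± 1.51% in NonCM Wls fl/fl and 68.7 ± 3.13% in NonCM control libraries, and Col6a6 26.8 ± 1.45% in NonCM Wls fl/fl and 29.3 ± 2.66% in NonCM control libraries, both with overlapping ranges. In CM these ranges were apart, with Col6a3 at 73.1 to 79.6% in Wls fl/fl and 69.0 to 72.2% in control libraries, and Col6a6 at 18.19 to 21.98% in Wls fl/fl and 24.7 to 25.5% in control libraries. Col6a4, on the few reads given above, made up 0.407 to 0.606% in CM Wls fl/fl and 0.991 to 1.4% in CM control libraries, while the Col6a5 ranges overlapped in CM. These shares were not tested. The 4 shares of a library add up to the whole, so they are not separate results. With 3 against 3 libraries, groups lie apart by chance in 10% of cases.

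In control hearts all 5 tested chains were higher in NonCM than in CM, where 55.3% of 13993 genes differed and 28.1% were higher in NonCM. The log2 difference was 2.35 for Col6a1, 2.44 for Col6a2, 2.54 for Col6a3, 1.74 for Col6a5 and 2.75 for Col6a6, with edgeR adjusted p-values of 4.5e-04 for Col6a5 and at most 2.8e-14 for the other 4. Per kb of the longest CCDS transcript, Col6a1 averaged 145.9 ± 4.35 in NonCM control and 23.8 ± 2.45 in CM control libraries, and Col6a3 averaged 34.3 ± 1.1 in NonCM control and 4.95 ± 0.298 in CM control libraries (SD, n = 3 each). Over 10 fibroblast markers the median of the same log2 difference was 3.10, with a range of 1.73 to 3.77. All 5 chains lay within that range, Col6a5 at its lower edge. The Col6a5 value also lay within the ranges of the epicardial (0.393 to 2.003), Schwann (0.748 to 2.135) and myofibroblast (−0.895 to 2.715) markers. Without replicate 3 of all 4 groups the Col6a5 difference was 1.24 (edgeR adjusted p = 0.0746), and 40.3% of all genes were called.

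Marker genes of several cell types also changed in NonCM, where 9 marker lists were counted. Over all genes tested there, limma called 4.51% (2.47% higher) and edgeR called 10.9%, and 53.15% had a positive change. Of 10 fibroblast markers 6 rose and 0 fell (median log2 change 0.38), and together they took 0.668 to 0.684% of reads in NonCM Wls fl/fl libraries, against 0.511 to 0.598% in NonCM control libraries. Of 12 cardiomyocyte markers 9 fell in NonCM and 0 rose, with the shares of reads given above. Of 6 myofibroblast markers tested 3 rose and 0 fell, with a summed share of 0.166 to 0.183% in NonCM Wls fl/fl against 0.106 to 0.122% in NonCM control libraries. The 3 were Fn1, Postn and Tnc, all matrix proteins, while Acta2, the smooth muscle actin often used to mark myofibroblasts and named here after its values were seen, was lower, at −0.25 (limma adjusted p = 0.073, edgeR adjusted p = 0.0159). Of 6 epicardial markers, all with a positive change and a median of 0.60, limma called 1 (Upk1b) and edgeR 5 higher, and their share was 0.0149 to 0.0167% in NonCM Wls fl/fl against 0.00679 to 0.0135% in NonCM control libraries. Of 8 endothelial markers 7 had a negative change, with a median of −0.14, and 1 fell (Emcn). Of 6 pericyte and smooth muscle markers tested 1 fell (Abcc9). A single call on the endothelial list and on this list does not set them apart from the 4.51% of all genes called. On the Schwann (3 tested) and erythroid (5 tested) lists limma and edgeR called 0, with 2 Schwann and 0 erythroid markers at an unadjusted limma p under 0.05. The share of all NonCM genes at that unadjusted p is not given here. Of 9 macrophage markers 2 rose and 0 fell, with 0.182 to 0.193% in NonCM Wls fl/fl against 0.126 to 0.159% in NonCM control libraries. No marker on the 9 lists was at 0 in every library of a fraction. Without replicate 3 of both genotypes limma called none of these markers, and edgeR called Fn1 and the fibroblast marker Mfap5, both higher. The part of these shifts in the rise of the chains was not tested, and in bulk RNA more fibroblasts and more RNA per fibroblast cannot be told apart. In CM the fibroblast markers took 0.0542 to 0.0596% of reads in Wls fl/fl libraries and 0.0614 to 0.0650% in control libraries, and 0 of 10 were called.

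Ratios within a library do not depend on how libraries were scaled, and 28 were compared by an exact two-sided permutation test, for which 3 against 3 libraries allow no p under 0.1 and, without replicate 3, 2 against 2 allow none under 0.333. In NonCM, Col6a3 over Col6a1 was 0.575 ± 0.0172 in Wls fl/fl and 0.517 ± 0.0295 in control libraries, and Col6a2 over Col6a1 was 1.02 ± 0.0117 in Wls fl/fl and 0.967 ± 0.0202 in control libraries (SD, n = 3 each). In CM, Col6a3 over Col6a1 was 0.561 ± 0.0340 in Wls fl/fl and 0.459 ± 0.0416 in control libraries. All 3 ratios had groups that did not overlap (exact p = 0.1 each, 0.215 after Benjamini-Hochberg adjustment over the 28, the lowest adjusted value of any ratio). Their log2 differences of 0.16, 0.08 and 0.29 were 0.18, 0.07 and 0.20 without replicate 3. In CM, Col6a2 over Col6a1 was 1.03 ± 0.0237 in Wls fl/fl and 0.920 ± 0.107 in control libraries, with groups that overlapped (exact p = 0.2). Groups were apart for 10 of 14 ratios in NonCM and for 3 of 14 in CM. With 3 against 3 libraries, groups lie apart by chance in 10% of cases. The 28 ratios share chains and comparators and are not separate results. Against Pdgfra, a receptor that marks fibroblasts, Col6a3 in NonCM was at 0.923 ± 0.0232 in Wls fl/fl and 0.732 ± 0.0795 in control libraries with groups apart (exact p = 0.1). Col6a2 was at 1.64 ± 0.0269 in Wls fl/fl and 1.38 ± 0.202 in control libraries, also apart (exact p = 0.1). Col6a1 was at 1.60 ± 0.00798 in Wls fl/fl and 1.42 ± 0.188 in control libraries with groups that overlapped (exact p = 0.2). Pdgfra is 1 of 10 fibroblast markers, whose log2 changes in NonCM ranged from 0.16 to 0.73, and its own was 0.29. Ratios over the other markers were not computed, so these do not compare the chains with fibroblast markers as a set. The plot of ratios by library shows these values, except Col6a2 over Pdgfra, beside those over Col3a1.

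**Figure D3:**
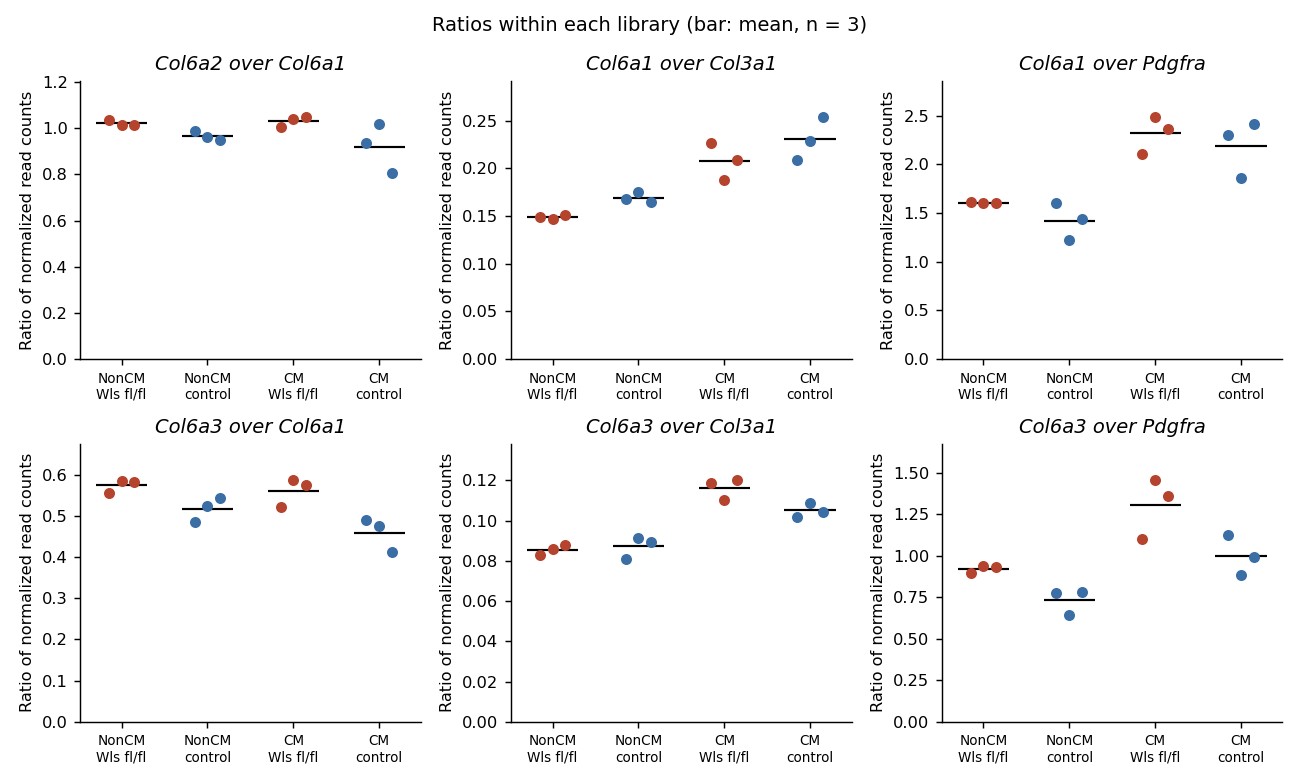
Ratios of normalized read counts within each library (vertical axes, each from 0) for Col6a2 or Col6a3 over Col6a1 and for Col6a1 or Col6a3 over Col3a1 and Pdgfra, with NonCM Wls fl/fl, NonCM control, CM Wls fl/fl and CM control from left to right; points are libraries and bars are means (n = 3). Col6a3 over Col6a1 lies higher in all 3 Wls fl/fl libraries of each fraction, with means of 0.575 in NonCM Wls fl/fl against 0.517 in NonCM control and 0.561 in CM Wls fl/fl against 0.459 in CM control libraries, while Col6a1 over Col3a1 lies lower in the 3 NonCM Wls fl/fl libraries.

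Col6a1 was lower in NonCM Wls fl/fl libraries relative to Col1a1 and Col3a1, chains of the fibrillar collagens I and III, while of these 2 ratios Col6a2 had groups apart only over Col3a1 and Col6a3 over neither. Col6a1 over Col3a1 was 0.149 ± 0.00212 in Wls fl/fl and 0.169 ± 0.00537 in control libraries, and Col6a2 over Col3a1 was 0.152 ± 0.00296 in Wls fl/fl and 0.163 ± 0.00643 in control libraries, both with groups apart (exact p = 0.1 each). Col6a3 over Col3a1 was 0.0856 ± 0.00262 in Wls fl/fl and 0.0872 ± 0.00542 in control libraries, with overlapping groups (exact p = 0.7). Over Col1a1 in NonCM, Col6a1 was 0.332 ± 0.0152 in Wls fl/fl and 0.374 ± 0.00834 in control libraries with groups apart (exact p = 0.1). The groups overlapped for Col6a2, at 0.340 ± 0.0189 in Wls fl/fl and 0.362 ± 0.0120 in control libraries (exact p = 0.2), and for Col6a3, at 0.191 ± 0.00484 in Wls fl/fl and 0.193 ± 0.0109 in control libraries (exact p = 0.7). In CM the 3 ratios over Col1a1 had overlapping groups (exact p = 0.4 to 0.9). Over Col3a1 in CM, Col6a3 was 0.116 ± 0.00522 in Wls fl/fl and 0.105 ± 0.00364 in control libraries with groups apart (exact p = 0.1). The groups overlapped there for Col6a1 (exact p = 0.3) and Col6a2 (exact p = 0.9). Relative to Col4a1, a basement membrane collagen, all 3 were higher in NonCM Wls fl/fl libraries, by 0.18 for Col6a1, 0.26 for Col6a2 and 0.33 for Col6a3 on the log2 scale, with groups apart (exact p = 0.1 each). In CM, Col6a1 over Col4a1 was 0.0797 ± 0.00187 in Wls fl/fl and 0.0937 ± 0.00735 in control libraries, again apart but lower in Wls fl/fl (exact p = 0.1). The 6 chains together took 11.9 ± 0.102% of the normalized reads of all collagen genes in NonCM Wls fl/fl and 11.9 ± 0.285% in NonCM control libraries (exact p = 1), and without replicate 3 the share was lower by 0.154 percentage points in Wls fl/fl. In CM they took 6.71 ± 0.0582% in Wls fl/fl and 7.01 ± 0.183% in control libraries (exact p = 0.1).

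Of 28 other collagen genes tested in NonCM, 13 rose and 0 fell, with a median log2 change of 0.38. Over all genes tested in NonCM, 4.51% were called and 2.47% were called higher. None of the 28 had a change as large as that of Col6a5, and the next was Col14a1, at 0.78. The 4 with the smallest p were Col3a1 at 0.65, Col1a2 at 0.60, Col1a1 at 0.65 and Col15a1 at 0.60 (limma adjusted p from 6.4e-04 to 0.00112). Among the 33 tested collagen genes, ranked by change, Col6a3 was 10th, Col6a2 14th, Col6a6 16th and Col6a1 18th. Without replicate 3 of both genotypes limma called none of the 28, and edgeR called Col14a1 and Col16a1, both higher. In CM 0 of 23 other collagens were called, by limma or by edgeR, and the median was 0.15. Of the 23, 7 had an unadjusted limma p under 0.05, as did 8.74% of all genes tested in CM. The plot of collagen genes by change sets the chains among the other collagens of each fraction.

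**Figure D4:**
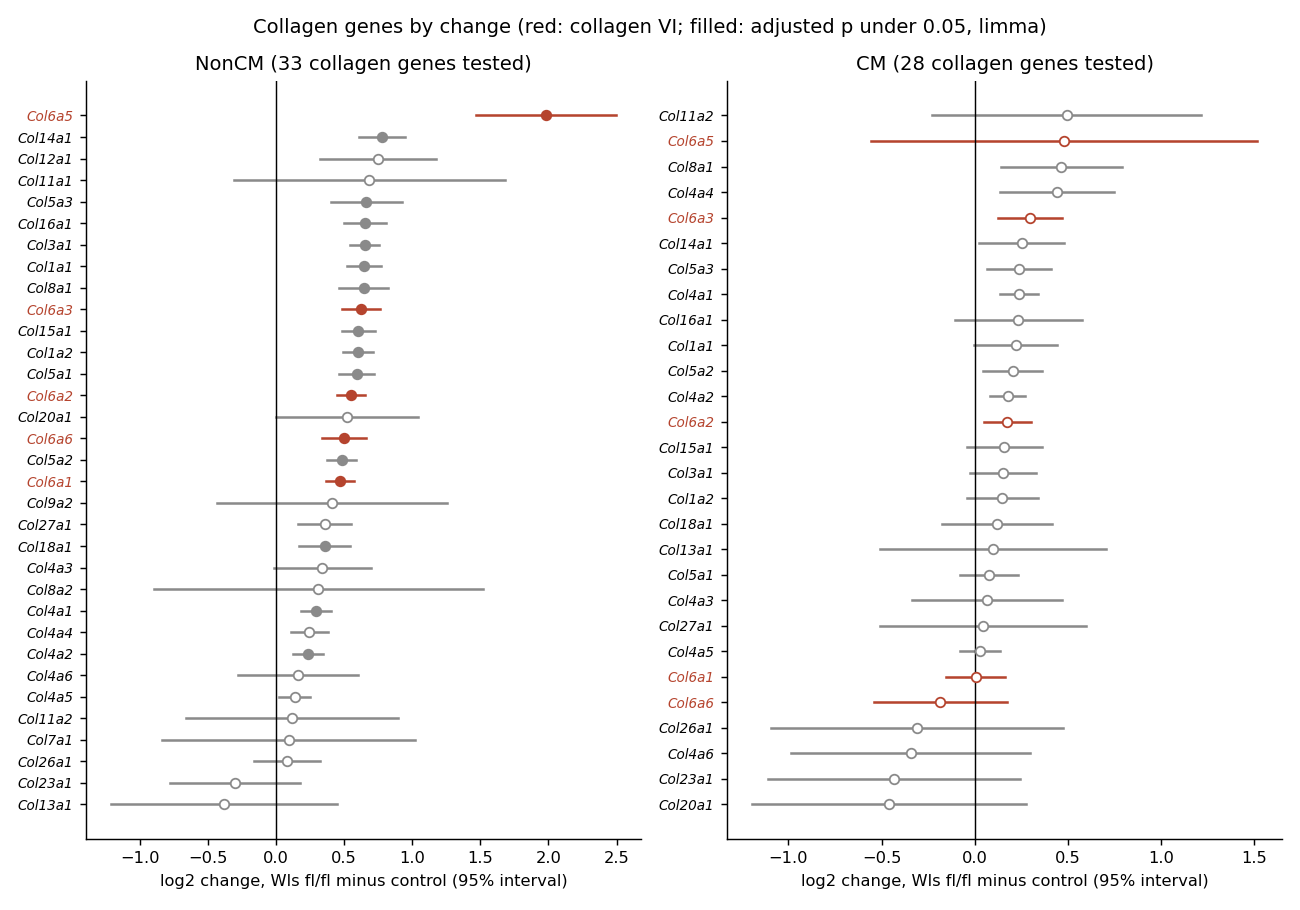
Log2 change of Wls fl/fl minus control with its 95% interval (horizontal axes, limma) for every collagen gene tested in NonCM (left, 33 genes) and CM (right, 28 genes), ordered by change; red marks collagen VI chains, grey the other collagens, and filled points an adjusted p under 0.05. In NonCM all 5 red points are filled, Col6a5 lies at 1.98 beyond every other collagen, and in CM no point is filled.

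Known partners of collagen VI are given from lists, over the NonCM fit. Of 7 receptor genes tested 1 rose and 0 fell, with a median log2 change of 0.04. By edgeR 2 of the 7 were called, both higher, against 10.9% of all genes. The gene called by edgeR alone was Itga11 (log2 change 1.10, limma adjusted p = 0.0534, edgeR adjusted p = 0.00254). By limma 4.51% of all genes were called, so by the limma count 1 call among 7 does not set the receptors apart. The gene called by limma was Antxr1, which encodes a cell surface receptor reported to bind collagen VI. It had 1115 ± 6.0 normalized reads in NonCM Wls fl/fl and 747 ± 65.1 in NonCM control libraries (log2 change 0.58, limma adjusted p = 0.00293). Of 10 matrix partners tested 5 rose and 0 fell, with a median of 0.48. By edgeR 6 of the 10 were called, all higher. The 4 of smallest p were Fn1 (fibronectin) at 0.88, Bgn (biglycan, a small proteoglycan that binds collagen VI) at 0.48, Lum (lumican) at 0.52 and Tnxb (tenascin X) at 0.55, with limma adjusted p from 9.8e-05 to 0.00292. Fn1 is also on the myofibroblast list. Without replicate 3 of both genotypes limma called no gene of the receptor, partner, folding and protease lists, and edgeR called Fn1 alone.

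Of 13 genes for collagen folding and secretion, edgeR called 4 higher and 0 lower, against 10.9% of all genes called. Of the 13, 11 had a positive change, as did 53.15% of all genes tested in NonCM, and the median change was 0.17. An unadjusted limma p under 0.05 was found for 9, and the share of all NonCM genes at that p is not given here. By limma 1 rose and 0 fell, a count near the 4.51% of all genes called. The gene was Serpinh1, the chaperone HSP47 that binds folded procollagen, at 2475 ± 45.7 normalized reads in NonCM Wls fl/fl and 1933 ± 186 in NonCM control libraries (log2 change 0.36, limma adjusted p = 0.0236). Of 5 proteases reported to act on collagen VI or on procollagens, edgeR called 4, all higher. By limma 3 rose and 0 fell, with a median of 0.40. Bmp1, which trims procollagens, had a log2 change of 0.46, Mmp14, a membrane protease, 0.40, and Mmp2, a gelatinase, 0.35 (limma adjusted p = 0.0126, 0.0113 and 0.00388).

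In CM no gene of these 4 lists was called, of 5 receptors, 9 matrix partners, 12 folding and 4 protease genes tested. By edgeR the count was also 0, while 3 partners and 2 folding genes had an unadjusted limma p under 0.05, as did 8.74% of all genes tested in CM. The genes of smallest p were Antxr1 among receptors (log2 difference 0.17, limma adjusted p = 0.732), Fn1 among partners (0.36, adjusted p = 0.0682), P4ha1, a proline hydroxylase subunit, among folding genes (0.35, adjusted p = 0.28) and Mmp2 among proteases (−0.13, adjusted p = 0.686).

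Across the 6 NonCM libraries, the 5 tested chains followed each other, with Pearson r of log2 values from 0.898 (Col6a3 and Col6a6) to 0.997 (Col6a1 and Col6a2). These 6 points fall into 2 genotype groups and share their libraries, so the values describe the groups' separation. In CM, r was 0.94 between Col6a2 and Col6a3 and −0.07 between Col6a1 and Col6a2. The genes most like the mean profile of Col6a1, Col6a2 and Col6a3 over the 6 NonCM libraries, of 9473 genes with a mean of 50 or more, were Pde1a (r = 0.9992), Igfbp7 (r = 0.9981), Ssc5d (r = 0.9972), Mfap5 (r = 0.9969) and Col1a2 (r = 0.9966). Pde1a had 200.2 ± 3.78 normalized reads in NonCM Wls fl/fl and 167 ± 1.88 in NonCM control libraries and was not called (limma adjusted p = 0.0998), while the other 4 were called. No correlation is given without replicate 3, which would leave 4 libraries. Over the 6 CM libraries the mean profile followed Col6a3 (r = 0.975) and Col6a2 (r = 0.880) more than Col6a1 (r = 0.398). The genes most like that mean profile there, of 8270 genes, were Col5a2 (r = 0.9896), Sh3bgr (r = 0.9881), Lsm4 (r = 0.9841), Jmjd4 and Lactb2 (r = 0.9834 each). None of the 5 was called.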

How the data were processed

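Bulk RNA-seq of 12 libraries, 3 in each of 4 groups of genotype and fraction, was analysed, with groups taken from the labels. STAR, DESeq2 and mm10 are named in the submitters' processing notes, while annotation, counter and strand use were not found there. Each fraction has a deposited table with a signal value per library, made by the authors as the read count over a size factor. Dividing by the smallest step of a library gave whole reads for 100% of its values (within 0.01 reads), and these recovered reads entered the count tests. The authors' log2 fold changes and p-values, per the file headers, were used only where named, and their deposited test score was not used.

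Each fraction was fitted by limma 3.58.1 in R 4.3.3 (trended eBayes, no covariate) on log2(value + 1), keeping genes whose mean was 10 or more, with Benjamini-Hochberg adjustment over all genes tested and a threshold of 0.05. Such fold changes understate those of low genes. A joint edgeR 4.0.16 quasi-likelihood fit of the recovered reads of 12 libraries (TMM) tested the fraction differences and the interaction. Ratios and shares were compared by exact two-sided permutation tests over libraries. Alternatives were other scalings (TMM, upper quartile), filters (none, a mean of 50), pseudocounts (0.5 and 5), edgeR, DESeq2 1.42.0 and limma-voom, an adjusted p of 0.1, each library left out and replicate 3 left out. The edgeR fits without replicate 3, the lists, ratios and shares without it, and CCDS lengths were added after the data were seen. Code was tested on simulated data.

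Positions and lengths came from GENCODE M21, which 44027 symbols (93.7%) matched, and promoters from RefSeq (GRCm38.p6), where all 6 chains had a window. Protein sequences were not analysed here. Genes named are the chains, Wls, the genes used in ratios and list members that passed (or the 4 of smallest p where none or more than 4 did, of which the first is printed for CM). Also named are the 5 genes most like the mean profile of the classical chains in each fraction. The members and lists were chosen with earlier results of these data known. Acta2, Itga11, Col14a1, Col16a1 and the Col6a5 promoter were added after their values were seen.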

Additional observations from a re-analysis of the deposited data

Results flagged for a closer look

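For 3 chains the difference between genotypes itself differed between the fractions (edgeR interaction over 12 libraries). The log2 difference in NonCM exceeded that in CM by 0.459 for Col6a1, by 0.361 for Col6a2 and by 0.705 for Col6a6. In NonCM all 3 Wls fl/fl libraries of each of these chains lay above all 3 controls. In CM this was so for Col6a2, while the groups of Col6a1 and Col6a6 overlapped. The calls of all 3 chains were lost without replicate 3 of all 4 groups, at 0.324 for Col6a1, 0.327 for Col6a2 and 0.593 for Col6a6.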

How the results depend on the processing

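In NonCM the 5 tested chains kept direction and call under the other scalings, filters, pseudocounts, tools and the 0.1 threshold, where all libraries were kept. Without replicate 3 of both genotypes, log2 changes (limma, then edgeR) were 0.442 and 0.421 for Col6a1, 0.514 and 0.493 for Col6a2, 0.622 and 0.592 for Col6a3, 2.055 and 2.385 for Col6a5 and 0.479 and 0.483 for Col6a6, with limma adjusted p from 0.191 to 0.24 and edgeR adjusted p of 0.111, 0.0617, 0.0578, 0.0124 and 0.0641. In these fits each of the 5 chains lost the limma call and 4 lost the edgeR call, and the cause was not tested. Leaving out single libraries gave 0.454 to 0.497 for Col6a1, 0.521 to 0.574 for Col6a2, 0.575 to 0.674 for Col6a3, 1.703 to 2.197 for Col6a5 and 0.439 to 0.557 for Col6a6, which lost its call without Wls fl/fl replicate 2 (0.459).

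In CM, where no chain was called, the near-zero Col6a1 difference changed sign: −0.006 by edgeR, −0.004 by DESeq2, −0.006 by limma-voom, and −0.063 to 0.079 with single libraries left out (−0.003 and −0.063 when control library 1 or 2 was left out, −0.017 when Wls fl/fl library 2 was). The cause was not tested.

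The interaction ranged, with single libraries left out, from 0.379 to 0.526 for Col6a1, 0.323 to 0.395 for Col6a2 and 0.612 to 0.885 for Col6a6, and without replicate 3 of all groups it was 0.324, 0.327 and 0.593. Col6a1 lost its call without NonCM control 3 (0.434), NonCM Wls fl/fl 2 or 3 (0.447 and 0.448), CM control 3 (0.379) or CM Wls fl/fl 3 (0.441). Col6a2 lost it without NonCM control 3 (0.323), NonCM Wls fl/fl 2 or 3 (0.353 each), CM control 1 or 3 (0.348 and 0.378) or CM Wls fl/fl 1 or 3 (0.333 and 0.354). Col6a6 lost it without NonCM control 3 (0.635), NonCM Wls fl/fl 2 or 3 (0.661 and 0.739), CM control 1, 2 or 3 (0.628, 0.765 and 0.717) or CM Wls fl/fl 1 or 3 (0.612 and 0.618), and with library size scaling (0.771, adjusted p = 0.0589, cause not tested). NonCM over CM for Col6a5 lost its call without replicate 3 (1.238, adjusted p = 0.0746). Of the 28 ratios 5 changed sign near 0, and the cause was not tested. In NonCM, Col6a3 over Col3a1, −0.025 on log2, ranged from −0.077 to 0.009, and Col6a3 over Col1a1, −0.019, from −0.067 to 0.007, with single libraries left out. In CM the same ranges were −0.123 to 0.076 for Col6a2 over Col1a1, −0.029 to 0.099 for Col6a2 over Col3a1 (−0.014 without replicate 3) and −0.029 to 0.162 for Col6a1 over Pdgfra. The collagen VI share of collagen reads in NonCM, higher by 0.0372 percentage points in Wls fl/fl, was lower by that measure per exon length (−0.045) and ranged from −0.127 to 0.130 with single libraries left out and was −0.154 without replicate 3.

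Genes called in NonCM, 598 by limma, numbered 1446 by edgeR, 1477 by limma-voom, 1120 at an adjusted p of 0.1, 73 to 1621 with single libraries left out, and 0 (limma) or 27 (edgeR) without replicate 3. In CM, 11 became 41 with no filter, 23 by DESeq2, 17 by limma-voom, 21 at 0.1, 5 to 18 with single libraries left out and 2 without replicate 3 by either tool. Depth limits Col6a4 in both fractions and Col6a5 in CM. No paired analysis was possible because the labels do not say which CM and NonCM libraries share a heart and the library numbers in the titles are not shared between groups. Protein comparisons were not run.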
